A study of Mus musculus with 18 samples.

Results

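The tumour suppressor p53 and genes it is known to switch on were followed in MOVAS cells, a mouse aortic smooth muscle line, after doxorubicin, hydrogen peroxide and isoliensinine. The set has 35 genes of the 21959 in the expression table. It holds Trp53, which encodes p53, its regulators, and known mouse targets, leaving aside CDK inhibitors and the BCL2 and death receptor families. It was chosen by gene name, but with earlier results of these data known, so its shares against all genes are descriptive. All 35 were among the 13375 genes expressed highly enough to be tested.

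RNA sequencing was done on 18 libraries in 6 groups of 3. Blank cells had no treatment, H2O2 cells had hydrogen peroxide and Dox cells had doxorubicin, a chemotherapy drug that damages DNA. The study used both agents to induce senescence, a lasting halt of cell division. For B_I, H_I and D_I the labels name isoliensinine alone, an alkaloid of the lotus plant. Their titles parallel those of Blank, H2O2 and Dox, and each was taken as the same condition with isoliensinine added. The sources used here give no dose or time. Libraries are named by group and the replicate number of the title, so that the Blank libraries are Blank_1, Blank_2 and Blank_4.

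In resting cells p53 is made and destroyed continually, because the ubiquitin ligase Mdm2 marks it for breakdown. DNA damage activates kinases that modify p53 and free it from Mdm2, so its activity can rise with no rise of its own mRNA, and active p53 then binds DNA and raises transcription of genes for cell cycle arrest, repair, death and metabolism, including Mdm2 itself. As general knowledge, which the labels do not state, the MOVAS line was immortalised with the large T antigen of a simian polyomavirus, a protein that binds p53. All 6 groups share that background, and the line is a single immortalised culture and not primary tissue.

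Libraries held 12859609 to 23284077 counted reads. The Dox libraries were the deepest, at 20140802 to 23284077, against 15740815 to 16553596 in Blank. Raw read counts given below are not scaled to this depth. Of 10 smooth muscle markers all were found, but unevenly. Acta2 ran from 806 to 4514 CPM, reads scaled to library size, whereas Tagln, a defining marker of the contractile state, was at or near 0 in every library, with 0.809 CPM at most. Blank_4 and B_I_3 stood apart from the libraries of their own groups, with smooth muscle marker sums of 5700 and 4921 CPM against 1553 to 3923 CPM elsewhere. Over all genes, H2O2_3 also differed more from H2O2_1 and H2O2_2 than those did from each other, as given under processing. Blank_4 was the lowest of its group for 18 of the 35 genes (51.4%, against 43.0% of all genes tested). It was the highest for 15 (42.9%, against 40.8%). The summed intestinal epithelium markers, all 9 of which were detected, ran from 46.3 to 742 CPM, and the highest value was in H_I_1. Endothelial marker sums stayed between 4.53 and 13.9 CPM and macrophage sums between 10.8 and 49.0 CPM. Hepatocyte sums ran from 35.5 to 308 CPM, also highest in H_I_1. Fibroblast sums, mostly Col1a1, ran from 2230.2 to 6616 CPM and differed between the groups, as given beside the doxorubicin results. The part of these differences in the results was not tested, and counts of calls without Blank_4 and B_I_3 stand beside the comparisons that use them. In bulk RNA, more cells expressing a gene and more RNA per cell cannot be told apart.

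The promoters were searched for the letters that p53 recognises. The known p53 response element is a pair of similar half-sites of 10 letters each. It was searched on both strands, with at most 1 base between the half-sites, the invariant C and G of each half-site kept and at most 2 mismatches over the 20 letters. RefSeq promoter windows (GRCm38.p6) from 250 bases before to 50 after a gene start were available for 29 of the 35 genes. A site was present in 5 of the 29 genes (17.2%), against 218 of 27025 genes overall (0.807%). All 5 were among the 17 genes with a window that were higher in Dox than in Blank by the test below (29.4%), and 0 of the other 12 had one. The genes were listed as known p53 targets, so this share describes the list. The 5 sites follow, to show how near each comes to the element, and a match in a window is not evidence of binding.

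Capitals mark the 20 letters of the site, mismatches included, read in the direction of the gene. The 3 genes with 1 mismatch are shown with the bases before the gene start, and the 2 genes with 2 mismatches as the site alone.
Ccng1: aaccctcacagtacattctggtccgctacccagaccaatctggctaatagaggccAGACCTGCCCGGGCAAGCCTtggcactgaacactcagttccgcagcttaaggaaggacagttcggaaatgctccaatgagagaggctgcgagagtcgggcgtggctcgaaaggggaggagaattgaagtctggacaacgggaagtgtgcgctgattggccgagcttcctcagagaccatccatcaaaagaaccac
Gtse1: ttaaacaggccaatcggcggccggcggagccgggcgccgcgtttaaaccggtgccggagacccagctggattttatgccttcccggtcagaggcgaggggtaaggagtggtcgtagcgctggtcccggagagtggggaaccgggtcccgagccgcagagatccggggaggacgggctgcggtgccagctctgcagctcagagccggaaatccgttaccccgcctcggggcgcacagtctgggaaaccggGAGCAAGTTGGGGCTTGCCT
Rps27l: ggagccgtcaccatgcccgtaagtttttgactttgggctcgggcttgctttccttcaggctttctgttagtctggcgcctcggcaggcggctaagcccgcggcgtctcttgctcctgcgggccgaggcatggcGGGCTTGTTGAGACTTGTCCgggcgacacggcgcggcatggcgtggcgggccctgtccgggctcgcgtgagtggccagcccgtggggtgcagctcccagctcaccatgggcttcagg
Ckap2: AGACATGTCCTGACTTGTCA
Zfp365: AGACTAGGCTGGGCAAGACT

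The printed stretch of Ccng1 is chr11:40755287-40755536, minus strand, and its site begins at position -195 from the annotated start. That of Gtse1 is chr15:85859696-85859964, plus strand, with the site beginning at position -1 and so lying across the start. That of Rps27l is chr9:66946163-66946412, plus strand, with the site at position -117. The Ckap2 site lies at chr8:22186003-22186022, position -203, and the Zfp365 site at chr10:67912706-67912725, position -63. None of the 5 has bases between the half-sites. A single half-site with no mismatch was present in 12 of 42 windows of the set (28.6%) and in 8.36% of all windows, so a half-site alone is common. The Mdm2 window holds such a half-site but no full site, and no match says only that the letters are not in that window. Outside the set, 93 tested genes had a full site, of which 10 (10.8%) were higher and 9 (9.68%) lower in Dox, close to the 10.4% and 11.4% among genes without one. Cdkn1a, the gene of the CDK inhibitor p21, was among the 10, with 1 mismatch.

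After doxorubicin 18 of the 35 genes rose, among them the p53 ligase Mdm2, the cell cycle genes Ccng1, Btg2 and Plk2 and the death and survival genes Aen, Zmat3 and Eda2r. All changes below are log2 fold changes. In Dox against Blank, 18 genes were thus higher and 2 lower, while 10.3% of all genes tested were higher, 11.4% lower and 21.7% changed either way (the quasi-likelihood test of edgeR, Benjamini-Hochberg adjusted, called at an adjusted p under 0.05). The 18 are 51.4% of the set. The median log2 change was 0.72, against 0.08 over all genes, and 82.9% of the set had a positive change, against 55.9% of all genes. Libraries did not overlap for 21 genes that were above Blank and 5 below, against 19.6% and 16.5% of all genes. At an unadjusted p under 0.05 there were 28 genes of the set, or 80.0%, against 32.8% of all genes. Of the 20 calls, 14 held in each alternative analysis. Leaving out Blank_4 and B_I_3 gave 21 calls, 18 higher and 3 lower. Summed fibroblast markers, 6 genes led by Col1a1, moved with doxorubicin, but not every marker fell. Col1a1, Pdgfra and Pdgfrb were lower in all Dox libraries than in Blank, and Lum was at or near 0. Dcn was higher, at 2.53 to 4.36 CPM in Blank and 4.56 to 5.87 CPM in Dox. Fbln1 overlapped, at 101 to 128 CPM in Blank and 120 to 122 CPM in Dox. The sum was 5349.7 to 6616 CPM in Blank and 2230.2 to 2372 CPM in Dox, with 2977 to 3855 CPM in H2O2 between them. Its part in the changes of the set was not tested.

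**Figure D1:**
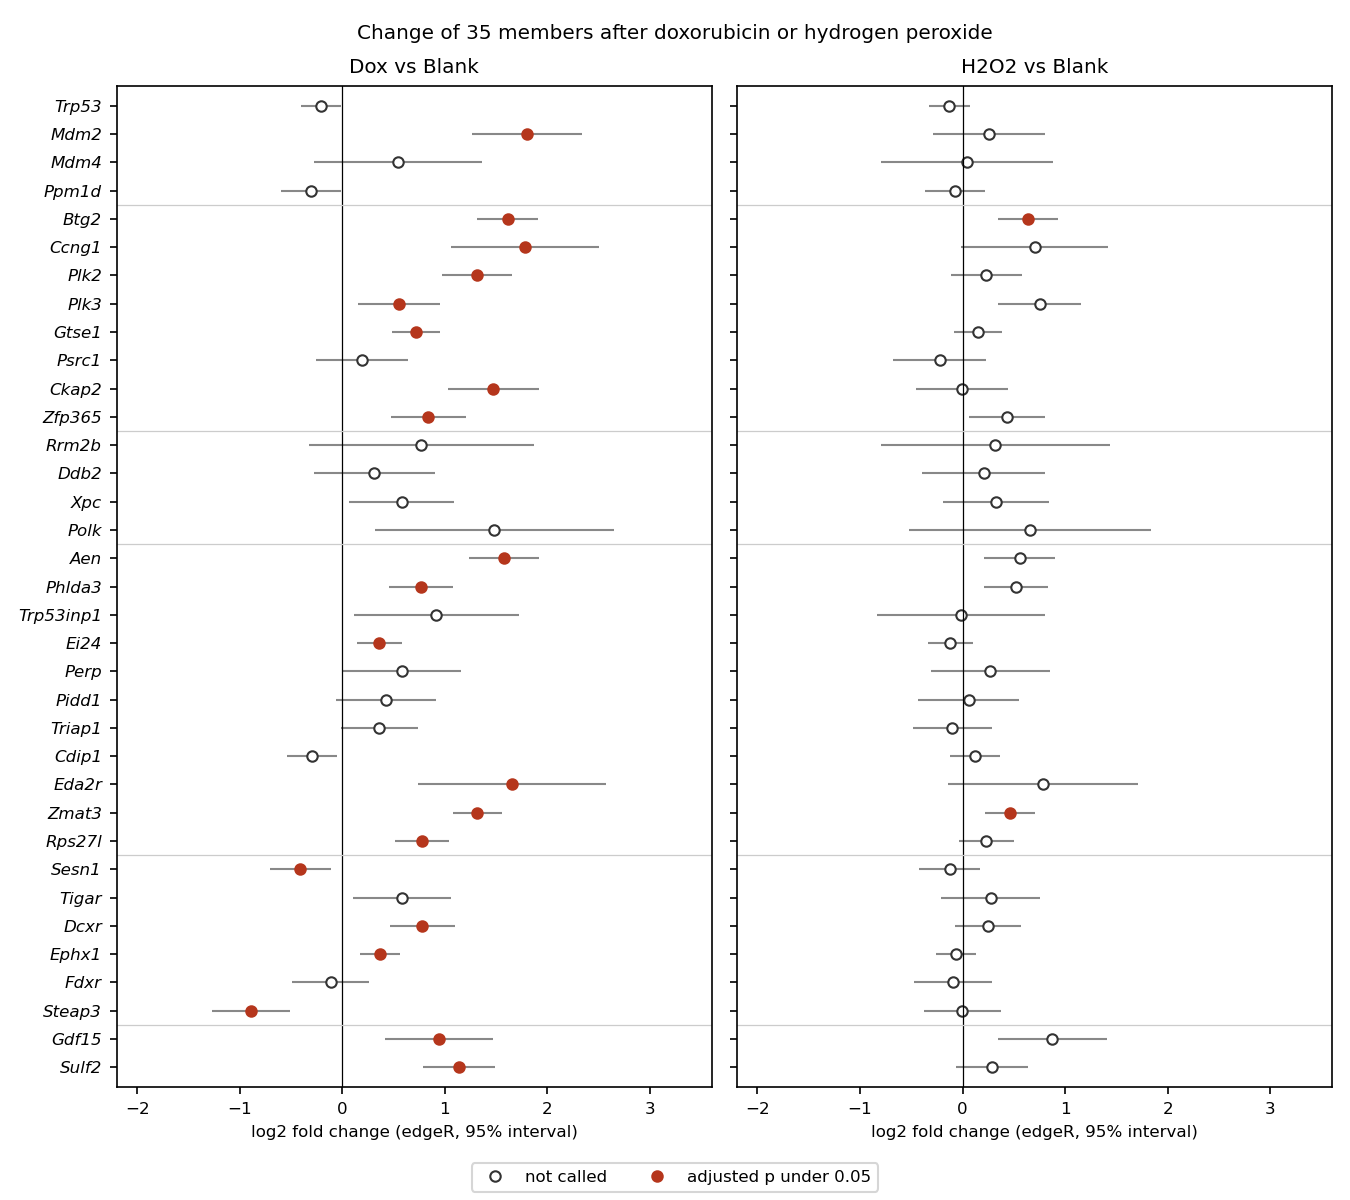
Log2 fold change of each of the 35 genes in Dox against Blank (left) and H2O2 against Blank (right), grouped by role, with 95% intervals from edgeR; filled points have an adjusted p under 0.05. On the left 18 points are filled to the right of 0 and 2, Sesn1 and Steap3, to the left, and on the right Btg2 and Zmat3 are the filled points.

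Trp53 itself was abundant and was not called in Dox or H2O2 against Blank. It lies at chromosome 11, 69471185 to 69482699, in the deposited table, for which the sources used here name no genome build. Its level in Blank was 67.02 ± 1.48 FPKM (SD, n = 3; the authors' length-scaled level, used here to compare genes), against a mean of 1.03 for Mdm2. In CPM scaled by TMM, the unit of every library value below, Trp53 had 276, 273 and 329 in Blank, 274, 263 and 265 in H2O2 and 256, 271 and 232 in Dox. The Dox libraries lay just under all Blank libraries, and H2O2 overlapped Blank. The change was -0.21 (SE 0.10) on the log2 scale in Dox, which missed the threshold (adjusted p = 0.133, the quasi-likelihood test of edgeR, Benjamini-Hochberg adjusted), and -0.13 in H2O2 (adjusted p = 0.605, same test).

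Mdm2, the ligase that destroys p53 and a p53 target, had the largest change of the set. Its levels were 6.85, 5.36 and 4.43 CPM in Blank_1, Blank_2 and Blank_4, 5.499, 6.51 and 7.999 CPM in H2O2 and 20.7, 15.04 and 22.4 CPM in Dox. All Dox libraries were more than the highest Blank library, and H2O2 and Blank overlapped. Mdm2 was 3.48-fold higher in Dox than in Blank, a log2 change of 1.80 (SE 0.26), with an adjusted p of 3.55e-05 by the quasi-likelihood test of edgeR, Benjamini-Hochberg adjusted. It rose from few reads, with counts of 110, 87 and 59 in Blank and 511, 310 and 494 in Dox. Mean FPKM was 1.03 in Blank and 4.02 in Dox.

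The other regulators did not pass the test. Mdm4, a relative of Mdm2 that binds and restrains p53, had 4.48, 3.57 and 2.404 CPM in Blank, 2.96, 3.97 and 3.88 CPM in H2O2 and 6.55, 3.69 and 5.07 CPM in Dox, and the 3 groups overlapped. Its change in Dox was 0.55 on the log2 scale with a 95% interval of -0.27 to 1.36. Ppm1d, the phosphatase Wip1 that removes activating phosphates from p53, had 43.96, 44.9 and 37.9 CPM in Blank, 36.5, 35.1 and 48.9 CPM in H2O2 and 31.8, 35.5 and 35.5 CPM in Dox. Ppm1d is usually listed as a p53 target, yet its Dox libraries lay under those of Blank, with a log2 change of -0.30 (adjusted p = 0.131, edgeR's quasi-likelihood test), and without Blank_4 and B_I_3 it was called lower, at -0.40 (adjusted p = 0.0411).

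**Figure D2:**
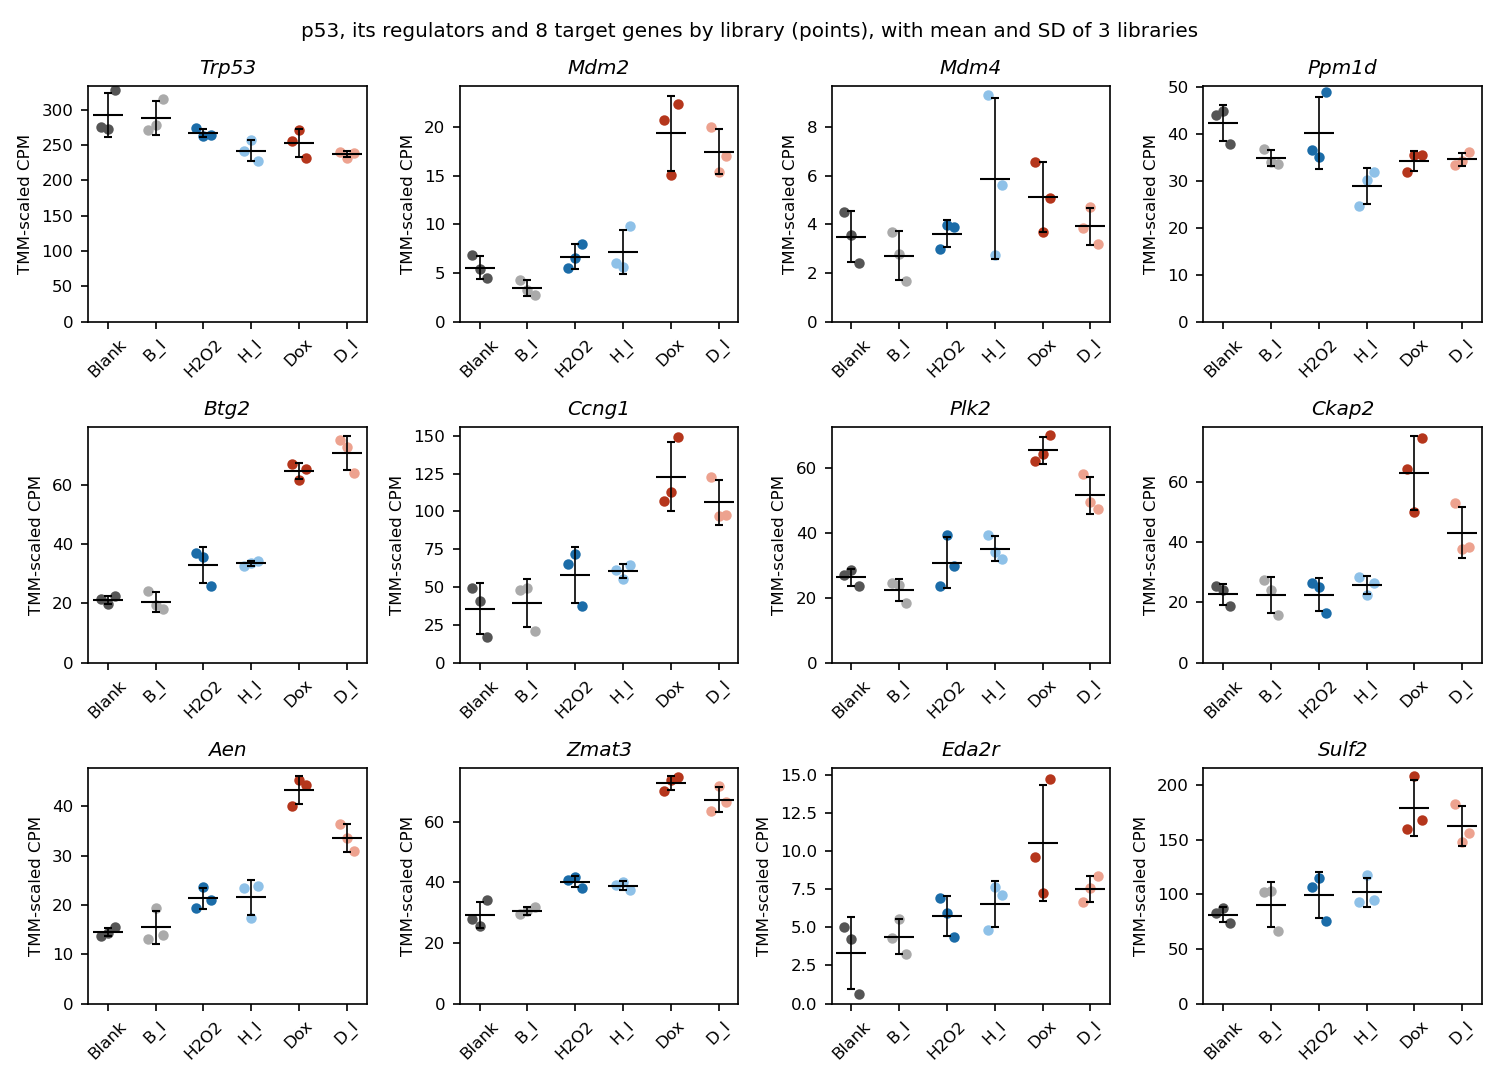
TMM-scaled CPM of p53, its 3 regulators and 8 target genes in every library (points), with the mean and SD of 3 libraries per group; each panel has its own axis, starting at 0. The Dox and D_I libraries lie above the other groups for Mdm2 and for each target except Eda2r. For Eda2r they overlap the H_I libraries, and D_I also overlaps H2O2. Trp53 stays between 227 and 329 CPM in all 18 libraries.

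Among cell cycle and growth genes, 7 of 8 rose in Dox (87.5%, against 10.3% of all genes). Psrc1, a spindle protein, was the exception at a log2 change of 0.19. Btg2, which restrains proliferation, had 21.5, 19.8 and 22.4 CPM in Blank, 37.2, 35.8 and 25.9 CPM in H2O2 and 67.2, 61.8 and 65.4 CPM in Dox. The 3 groups did not overlap, with H2O2 in between. Btg2 showed a log2 change of 1.61 (SE 0.14), with an adjusted p of 9.41e-08 in Dox by the quasi-likelihood test of edgeR, Benjamini-Hochberg adjusted.

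Ccng1, the gene of cyclin G1 and one of the best known p53 targets in mouse cells, had 49.4, 40.9 and 16.8 CPM in Blank, 65.5, 71.8 and 37.1 CPM in H2O2 and 107, 113 and 149 CPM in Dox. All Dox libraries exceeded the rest, and the low value of Blank_4 widened the Blank group. Its change in Dox was 1.78 (SE 0.34; adjusted p = 0.00115, the quasi-likelihood test of edgeR, Benjamini-Hochberg adjusted) and 1.42 without Blank_4. This is the gene with the promoter site at position -195 printed above.

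Plk2, a polo-like kinase, had 26.9, 28.5 and 23.4 CPM in Blank, 23.5, 39.3 and 29.7 CPM in H2O2 and 61.98, 64.1 and 70.02 CPM in Dox. Ckap2, a spindle protein made in dividing cells, had 25.4, 23.97 and 18.8 CPM in Blank, 26.3, 25.04 and 16.5 CPM in H2O2 and 64.3, 50.1 and 74.7 CPM in Dox. For both, Dox stood clear of the other groups and H2O2 overlapped Blank. The log2 changes in Dox were 1.31 (SE 0.17) for Plk2 and 1.47 (SE 0.21) for Ckap2, with adjusted p of 7.59e-06 and 3.87e-05 by the quasi-likelihood test of edgeR, Benjamini-Hochberg adjusted. Zfp365 rose by 0.84, Gtse1, a microtubule-bound protein that carries p53 out of the nucleus, by 0.72, and the kinase Plk3 by 0.55. The call for Plk3 was lost in 10 of 14 alternatives, a number that leaves out the stricter threshold of 0.01 here and below.

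Genes of cell death and survival formed the most numerous role, with 6 of 11 higher and 0 lower. The share higher was 54.5%, near the 51.4% of the whole set, against 10.3% of all genes. Aen, a nuclease of apoptotic cells, had 13.7, 14.4 and 15.5 CPM in Blank, 19.3, 23.7 and 20.97 CPM in H2O2 and 40.1, 45.5 and 44.3 CPM in Dox. The 3 groups did not overlap, again with H2O2 in between. Aen had a log2 change of 1.58 (SE 0.17), with an adjusted p of 8.22e-07 in Dox by the quasi-likelihood test of edgeR, Benjamini-Hochberg adjusted.

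Zmat3, an RNA-binding zinc finger protein that alters splicing, had 28.02, 25.7 and 34.1 CPM in Blank, 40.6, 41.9 and 38.1 CPM in H2O2 and 70.2, 73.7 and 74.6 CPM in Dox. Here too the groups were ordered Blank, H2O2, Dox with no overlap. The log2 change in Dox was 1.32 (SE 0.12; adjusted p = 8.46e-08, the quasi-likelihood test of edgeR, Benjamini-Hochberg adjusted), the smallest adjusted p of the set.

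Eda2r, a receptor of the tumour necrosis factor family, had 5.04, 4.25 and 0.601 CPM in Blank, 6.91, 5.95 and 4.35 CPM in H2O2 and 9.59, 7.28 and 14.8 CPM in Dox. The Dox libraries were all above Blank, and the Blank_4 value rests on 8 reads. Its log2 change was 1.66 (SE 0.44; adjusted p = 0.00925, the quasi-likelihood test of edgeR, Benjamini-Hochberg adjusted) and 1.15 without Blank_4, and the call was lost without Dox_3 and in a fit of the 6 libraries compared. Rps27l, a copy-like relative of the ribosomal gene Rps27 whose reads may be split with it, rose by 0.78. Phlda3, which blocks Akt at the membrane, rose by 0.77 and Ei24, a protein of the endoplasmic reticulum, by 0.36, and the Ei24 call was lost in 5 of 14 alternatives. Trp53inp1, which promotes p53 phosphorylation, was at 0.92 with a wide interval (0.11 to 1.72), and Perp, a desmosome protein, Pidd1, a caspase platform, and Triap1, a mitochondrial survival factor, were at 0.58, 0.43 and 0.36, none called. Triap1 was called higher without Blank_4, at 0.65. Cdip1, a pro-apoptotic membrane protein, was at -0.30, with Dox libraries under those of Blank (adjusted p = 0.0789, edgeR). DESeq2 called Cdip1 lower, at -0.34 (adjusted p = 0.0356).

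The 4 genes of DNA repair and nucleotide supply gave no call in Dox against Blank. Changes at an unadjusted p under 0.05 were seen in 2 of them by edgeR (50%, against 32.8% of all genes), and DESeq2 called Polk. Polk, a polymerase that copies past damaged bases, had a log2 change of 1.48 (adjusted p = 0.0629, edgeR), from counts of 51, 11 and 9 in Blank and 109, 56 and 125 in Dox. Without Blank_1, the library with the highest Polk count of its group, it was called by edgeR. Rrm2b, a ribonucleotide reductase subunit, had 14, 30 and 10 reads in Blank, and its interval of -0.33 to 1.87 allows either direction. Xpc and Ddb2, which detect lesions for nucleotide excision repair, were at 0.58 and 0.31. Absence of a call in these low genes says little, since 2-fold changes lie within some of their intervals.

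Metabolic genes moved in both directions. Dcxr, a carbonyl reductase, rose by 0.78. Ephx1, an epoxide hydrolase and at 325 FPKM in Blank the most abundant gene of the set, rose by 0.37. The Ephx1 call was lost without Dox_2 and in a fit of the 6 libraries compared. Steap3, a ferrireductase, fell, with 92.7, 96.996 and 55.2 CPM in Blank and 44.02, 47.5 and 40.4 CPM in Dox. All Dox libraries lay under all Blank libraries, Blank_4 being the lowest Blank library, and the log2 change was -0.89 (SE 0.18; adjusted p = 0.00123, the quasi-likelihood test of edgeR, Benjamini-Hochberg adjusted). Sesn1, a stress protein that restrains growth signalling, fell by 0.41 on the log2 scale, and this call was lost in 8 of 14 alternatives. Tigar, a sugar phosphatase, was at 0.58 and Fdxr, a mitochondrial reductase, at -0.11, neither called. Steap3 and Sesn1 are listed as p53-induced genes, so their direction differs from that of the 18 genes that rose.

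Both genes of secreted or extracellular products rose, where 10.3% of all genes were higher. Sulf2, a sulfatase that trims heparan sulfate at the cell surface, had 82.8, 87.3 and 74.2 CPM in Blank, 107, 115 and 75.4 CPM in H2O2 and 160.3, 209 and 169 CPM in Dox. Dox lay above every library of the other two groups, and H2O2 overlapped Blank. Its log2 change was 1.14 (SE 0.17; adjusted p = 5.01e-05, the quasi-likelihood test of edgeR, Benjamini-Hochberg adjusted). Gdf15, a stress hormone, had 7.29, 9.43 and 9.17 CPM in Blank, 16.6, 10.4 and 20.6 CPM in H2O2 and 13.6, 20.3 and 15.8 CPM in Dox, so that H2O2 and Dox overlapped. Gdf15 changed by 0.94 in Dox (adjusted p = 0.0104, edgeR), a call lost without Dox_2, and by 0.87 in H2O2 (adjusted p = 0.0942, edgeR).

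Hydrogen peroxide moved few genes of the set past the threshold. In H2O2 against Blank, 2 of 35 were higher and 0 lower, while 1.43% of all genes tested were called either way and 0.636% higher. The H2O2 libraries lay wholly above Blank for 6 genes (Btg2, Plk3, Zfp365, Aen, Zmat3 and Gdf15) and wholly below for 0, against 5.91% and 7.79% of all genes. Btg2 rose by 0.64 (SE 0.14; adjusted p = 0.0246) and Zmat3 by 0.46 (SE 0.12; adjusted p = 0.0496), both by the quasi-likelihood test of edgeR, Benjamini-Hochberg adjusted. Their values in each library stand above. H2O2_3 was the lowest H2O2 library for both. Neither call held in every alternative. Both were lost without Blank_1, Blank_2, H2O2_1 or H2O2_2, and in a fit of the 6 libraries compared. Zmat3 was also lost without H2O2_3.

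Several more genes sat close to the threshold in H2O2. Plk3 was at 0.75 (adjusted p = 0.0543), Phlda3 at 0.52 (0.0874) and Aen at 0.56 (0.0996, the quasi-likelihood test of edgeR, Benjamini-Hochberg adjusted in each case). DESeq2 called 6 genes, namely Btg2, Zmat3, Plk3, Phlda3, Aen and Gdf15. It also called more of all genes, 425 against 191 by edgeR. Without Blank_4 and B_I_3, edgeR also called 6, with Rps27l in place of Aen. The share of all genes called in that setting is not given here. The median of the set was 0.23, against -0.02 for all genes, and 7 genes had an unadjusted p under 0.05, against 13.6% of all genes.

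Set directly against hydrogen peroxide, doxorubicin gave the higher level for 13 genes and the lower for 2, where 6.73% and 6.33% of all genes, and 13.1% in all, were called. Dox lay wholly above H2O2 for 19 genes and wholly below for 3, against 19.0% and 13.6% of all genes, and 18 genes (51.4%) had an unadjusted p under 0.05, against 26.5%. The 13 were Mdm2, Btg2, Ccng1, Plk2, Gtse1, Ckap2, Aen, Ei24, Zmat3, Rps27l, Dcxr, Ephx1 and Sulf2. The log2 differences (Dox minus H2O2) were 1.54 for Mdm2, 1.48 for Ckap2, 1.08 for Plk2, 1.02 for Aen and 0.97 for Btg2. Steap3 (-0.89) and Cdip1 (-0.42) were the lower pair. Phlda3 (0.25), Plk3 (-0.20) and Gdf15 (0.07) were not called between the agents. Of the 15 calls, 11 held in each alternative analysis. Among the others, calls for Ccng1, Cdip1 and Dcxr were lost without H2O2_3 and under other omissions. Without H2O2_3 and H_I_1, 12 genes were called. Doses and times may differ between the agents, so these are differences between the groups as treated.

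**Figure D3:**
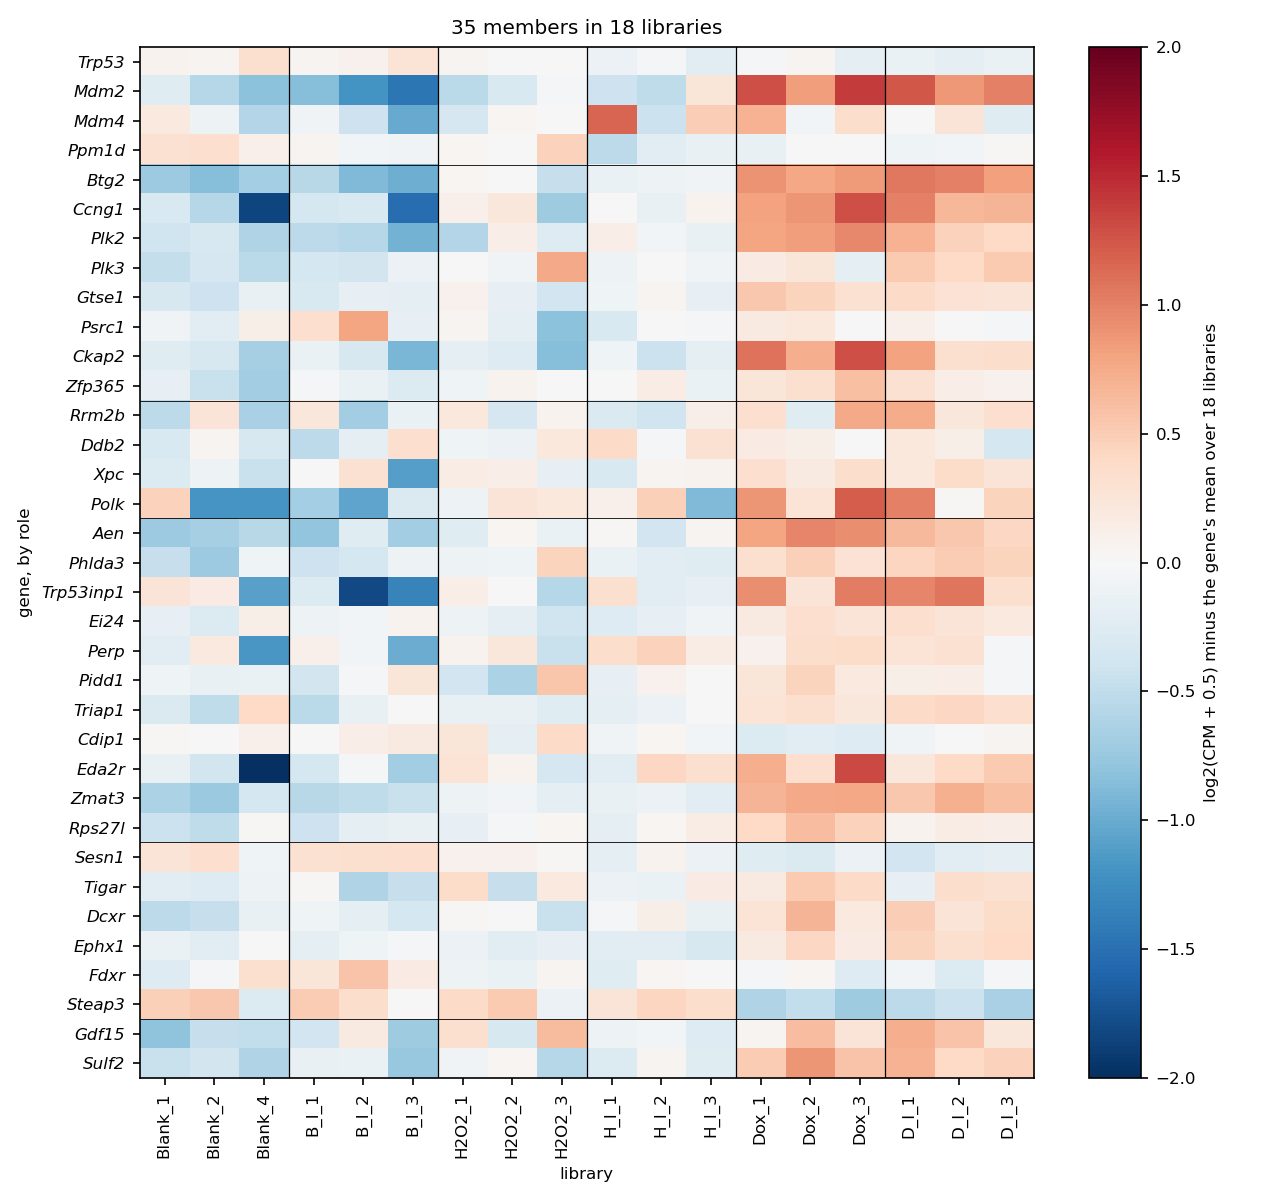
Level of each of the 35 genes in each of the 18 libraries, as log2(CPM + 0.5) minus the gene's mean over the libraries, with genes ordered by role. The Dox and D_I libraries are high for most rows, with the reverse for Steap3 and Sesn1, and Blank_4 and B_I_3 are low for Ccng1.

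The response to doxorubicin was seen a second time in cells that also had isoliensinine. D_I against B_I shares no library with Dox against Blank. It gave 17 genes higher and 3 lower, against 9.41% of all genes in each direction and 18.8% in all. D_I lay wholly above B_I for 21 genes and wholly below for 4, against 21.1% and 17.1% of all genes, and 24 genes (68.6%) had an unadjusted p under 0.05, against 31.0%. The higher sets shared 15 genes, 83.3% of the 18 and 88.2% of the 17, and over all genes the shared share was 57.9% and 63.1%. Steap3 and Sesn1 were lower in both. Without Blank_4 and B_I_3, D_I against B_I gave 23 calls, 18 higher and 5 lower. Fibroblast marker sums, again mostly Col1a1, were 4846 to 5759 CPM in B_I and 2356 to 2528 CPM in D_I, while Fbln1 was higher in D_I. Lum was also above B_I in D_I, but near 0 in both, with 0.966 CPM at most. Dcn overlapped, at 3.21 to 6.46 CPM in B_I and 4.40 to 6.53 CPM in D_I. The part of these markers was not tested here either.

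Mdm2 had 4.31, 3.29 and 2.695 CPM in B_I and 19.98, 15.4 and 17.04 CPM in D_I, without overlap. Btg2 had 24.3, 19.4 and 17.97 CPM in B_I and 75.4, 73.03 and 64.3 CPM in D_I, also without overlap. The log2 changes were 2.34 (SE 0.27) for Mdm2 and 1.79 (SE 0.14) for Btg2. Ccng1 was at 1.43, Plk2 at 1.21, Zmat3 at 1.14 and Aen at 1.12, all called. The genes called higher in D_I and not in Dox were Trp53inp1 (1.94) and Triap1 (0.60). The reverse held for Eda2r (0.78), Zfp365 (0.33) and Ei24 (0.30). For none of these 5 was the difference between the 2 responses itself past the threshold.

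Trp53 was called lower in D_I, with 271, 279 and 316 CPM in B_I and 240.2, 232 and 239 CPM in D_I. All D_I libraries lay under all B_I libraries, B_I_3 being the highest, and the log2 change was -0.28 (SE 0.10; adjusted p = 0.0426, the quasi-likelihood test of edgeR, Benjamini-Hochberg adjusted). The call was lost in 5 of 14 alternatives, among them those without B_I_3 and without each D_I library. Calls for Triap1, Rps27l, Dcxr and Gdf15 in D_I were also lost in at least 1 alternative.

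**Figure D4:**
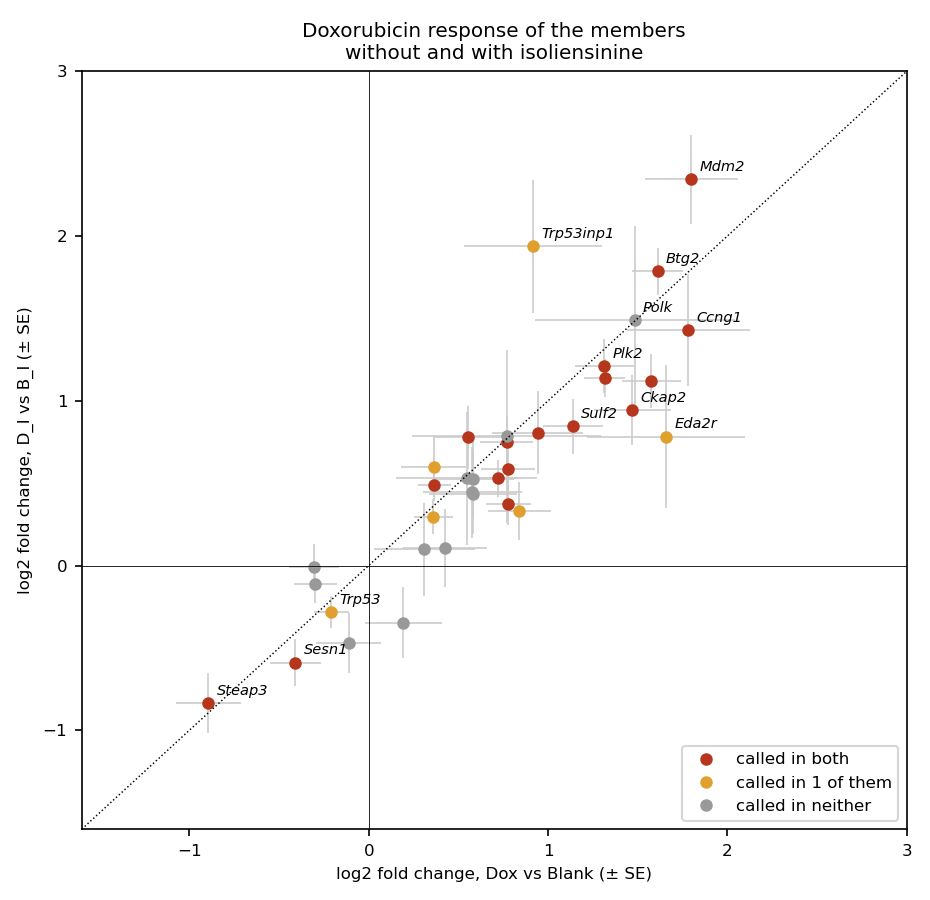
Log2 fold change of the 35 genes in Dox against Blank (x axis) and in D_I against B_I (y axis), with SE bars; the comparisons share no library. Mdm2 is highest on both axes, and Steap3 and Sesn1 are below 0 on both.

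H_I against B_I, the hydrogen peroxide comparison under isoliensinine, gave 2 genes higher and 0 lower, where 1.46% of all genes were called, 0.464% higher and 0.994% lower. H_I lay wholly above B_I for 9 genes and wholly below for 5, against 11.1% and 12.1% of all genes, and 11 genes (31.4%) had an unadjusted p under 0.05, against 17.4%. The 2 genes called were Btg2 (0.71, adjusted p = 0.0129) and Plk2 (0.66, adjusted p = 0.0498), by the quasi-likelihood test of edgeR, Benjamini-Hochberg adjusted. Btg2 had 32.8, 33.7 and 34.4 CPM in H_I, above its B_I values given before. Plk2 had 24.6, 23.9 and 18.4 CPM in B_I and 39.2, 34.2 and 31.98 CPM in H_I. Neither gene's groups overlapped. Both calls were lost without B_I_2, B_I_3, H_I_1 or H_I_3, and that for Plk2 also without H_I_2. Btg2 was the gene shared by this comparison and H2O2 against Blank, 1 of 2 in each. Without Blank_4 and B_I_3, 1 gene was called, Btg2. Mdm2 was at 1.05 (adjusted p = 0.0519, edgeR) and was called higher in 5 of 15 alternatives, among them DESeq2 (adjusted p = 0.0113).

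Isoliensinine against its reference changed no gene of the set past the threshold. In B_I against Blank, D_I against Dox and H_I against H2O2, edgeR called 0 of 35 genes and 0% of all genes tested. The count in B_I against Blank was also 0 without Blank_4 and B_I_3. DESeq2 called 0 of the 35 in each and 1, 25 and 70 of all genes. In D_I against Dox, however, DESeq2 gave no adjusted p for most of the 35, so these could not be called. Mdm2, Btg2, Plk2, Plk3, Ckap2 and Aen were among them. At an unadjusted p under 0.05 there were 2, 6 and 1 genes of the set, or 5.71%, 17.1% and 2.86%, against 4.79%, 4.16% and 6.84% of all genes. Libraries did not overlap for 0 genes above and 2 below in B_I against Blank (3.57% and 3.72% of all genes), 3 above and 4 below in D_I against Dox (10.2% and 8.62%), and 0 above and 3 below in H_I against H2O2 (7.01% and 5.12%). Intervals limit what was missed. They lay inside a 2-fold change either way (a log2 change of 1) for 29, 31 and 31 of the 35, and the others were mainly low genes such as Polk, Rrm2b, Mdm4 and Eda2r.

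In doxorubicin-treated cells the 6 genes were Plk2 (-0.34), Ckap2 (-0.55), Aen (-0.36) and Rps27l (-0.38), lower in D_I, and Plk3 (0.41) and Cdip1 (0.25), higher. Rps27l had 160.2, 185 and 166 CPM in Dox and 127, 134 and 133 CPM in D_I, and Plk2 had 58.1, 49.5 and 47.2 CPM in D_I, under its Dox values given before. Neither gene's libraries overlapped. The adjusted p over all 18 libraries was 0.844 for Rps27l and 0.999 for Plk2, by the quasi-likelihood test of edgeR, Benjamini-Hochberg adjusted. A fit of the 6 Dox and D_I libraries alone called both lower, with an adjusted p of 0.0058 for Rps27l and 0.049 for Plk2, in a comparison where 2.09% of all genes were called. Mdm2 did not separate, at -0.15 with an interval of -0.66 to 0.36.

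In untreated cells the lowest values were those of Trp53inp1 (-0.97) and Mdm2 (-0.69, interval -1.25 to -0.13), and all B_I libraries lay under the Blank libraries for Mdm2. In peroxide-treated cells Ppm1d, at 24.5, 30.04 and 31.8 CPM in H_I, lay under all H2O2 libraries (-0.48, adjusted p = 0.376, edgeR). The isoliensinine effect in Dox less that in Blank, and in H2O2 less that in Blank, gave 0 calls in the set and 0% of all genes by edgeR, with 0 of the 35 and 3 and 2 of all genes by DESeq2. At an unadjusted p under 0.05 each had 1 gene of the set (2.86%), against 3.90% and 6.08% of all genes. They were Rps27l for doxorubicin (-0.41) and Mdm2 for hydrogen peroxide (0.79).

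**Figure D5:**
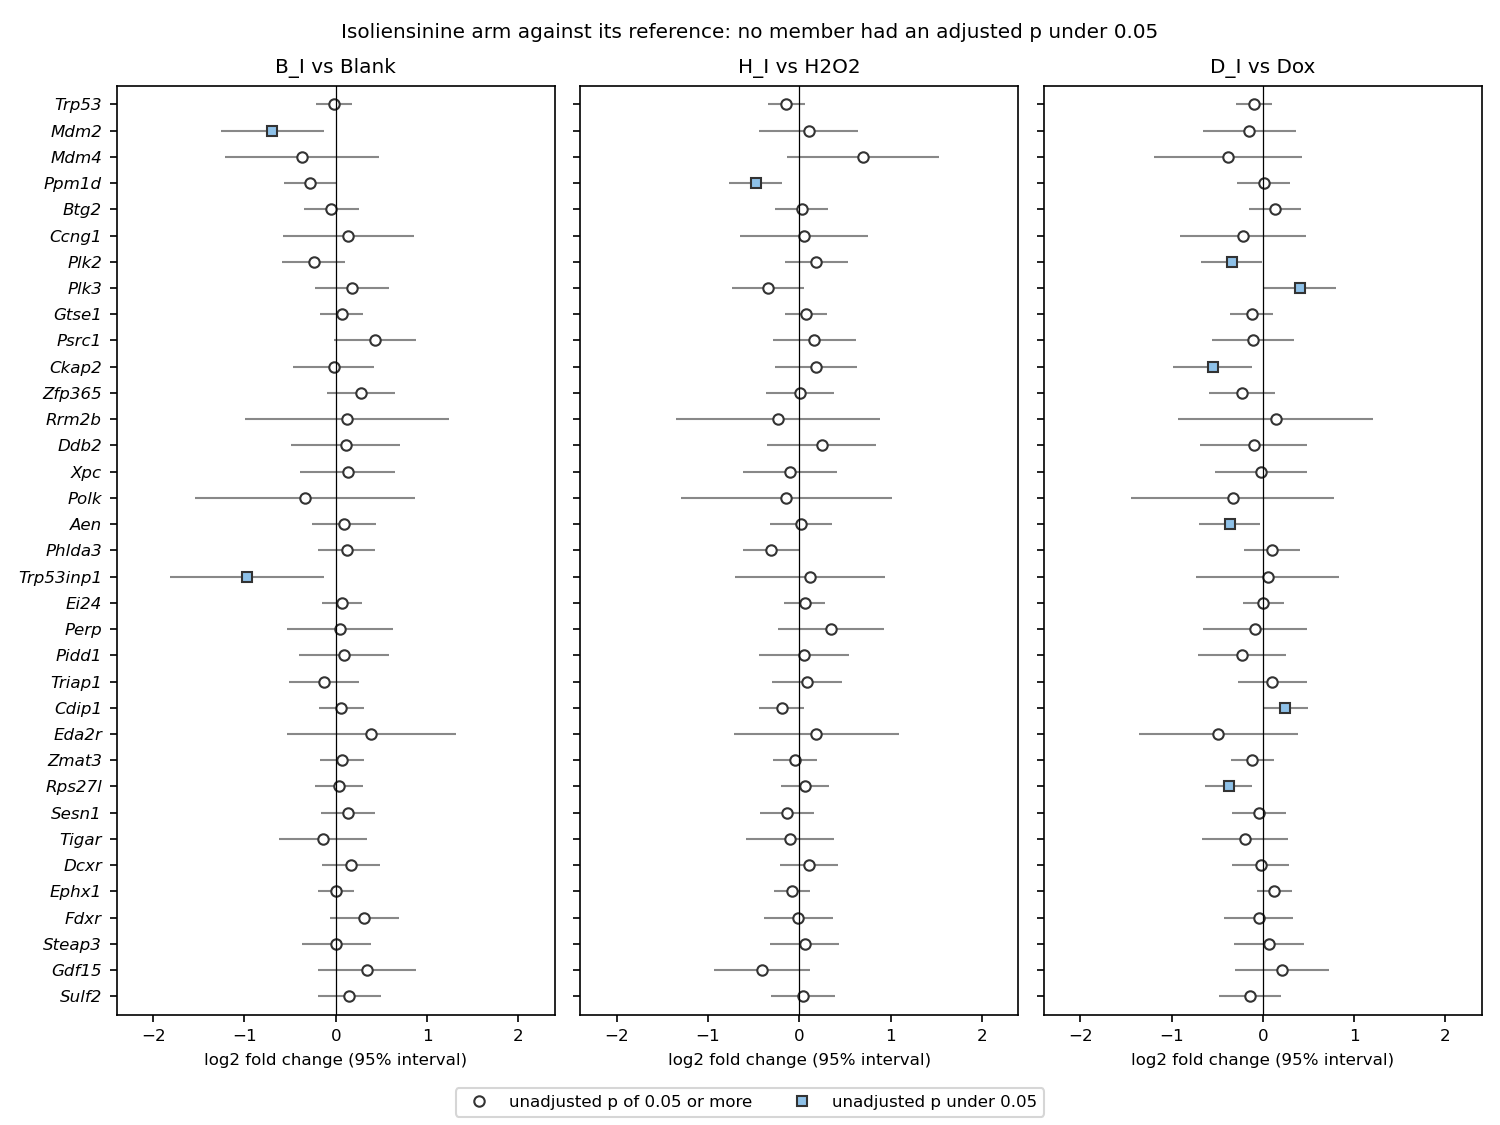
Log2 fold change of the 35 genes in each isoliensinine arm against its reference, with 95% intervals from edgeR; squares have an unadjusted p under 0.05. No gene had an adjusted p under 0.05, and there are 2, 1 and 6 squares in B_I, H_I and D_I.

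Over the 6 groups, the mean level was highest in Dox for 16 genes (45.7%, against 24.5% of all genes) and in D_I for 9 (25.7%, against 16.6%). It was lowest in Blank for 17 genes (48.6%), against 17.8% of all genes, and in B_I for 9 (25.7%), near the 22.2% of all genes. The 4 groups without doxorubicin were thus highest for 10 genes, among them Trp53 and Ppm1d in Blank and Mdm4 in H_I. The Mdm4 mean was led by H_I_1, at 9.30 CPM, with 2.71 CPM in H_I_2 and 5.60 CPM in H_I_3. By length-scaled level in Blank, Ephx1 (325 ± 8.88 FPKM), Rps27l (112 ± 13.4 FPKM) and Trp53 led, and Rrm2b (0.1202 ± 0.0687 FPKM), Mdm4 (0.223 ± 0.0794 FPKM) and Polk (0.259 ± 0.257 FPKM) came last. Rps27l and Trp53 differed by more than the SD of either, while the mean ± SD ranges of Rrm2b, Mdm4 and Polk met.

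Among other genes of the pathway, those that arrest or kill cells rose in part. Of 7, 3 were higher in Dox (42.9%, against 10.3% of all genes) and 0 lower. Cdkn1a had 110.3, 97.2 and 90.5 CPM in Blank, 231, 231 and 205 CPM in H2O2 and 422, 530.0 and 416 CPM in Dox, 3 groups without overlap. It changed by 2.20 (SE 0.13; adjusted p = 4.36e-10) in Dox and by 1.16 (adjusted p = 2.61e-05) in H2O2, by the quasi-likelihood test of edgeR, Benjamini-Hochberg adjusted. Tnfrsf10b, a death receptor, rose by 1.27 in Dox and Apaf1, the core of the apoptosome, by 0.92. The apoptosis genes Bax (-0.00) and Bbc3 (-0.29) were not called. In D_I against B_I, 3 of the 7 were higher, led by Cdkn1a (1.94) and Tnfrsf10b (1.30).

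Of 17 further p53 targets, 16 were tested, 5 of which were higher (31.2%) and 1 lower (6.25%) in Dox, against 10.3% and 11.4% of all genes. Ptprv, a phosphatase, was at 1.45 and Ptpn14, which restrains Yap, at 1.28, while Cd82, a tetraspanin, was lower at -0.85. In H2O2, Sesn2 was higher (0.50) and Cd82 lower (-0.57). Of 13 enzymes and partners that act on p53, 0 were higher in Dox by edgeR and 1 was lower, Cdkn2a (-0.58), the locus of p16 and p19Arf, which keeps Mdm2 from p53. The count at an unadjusted p under 0.05 was 4 (30.8%), near the 32.8% of all genes. In D_I against B_I, Trp53bp1 was higher (0.49), and Cdkn2a (-0.61) and Kat5 (-0.46) were lower. Trp63, the tested relative of p53, was not called in Dox, and Trp73 was not expressed highly enough to be tested.

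Genes of mitosis were counted because Ckap2, Gtse1 and Psrc1 also serve dividing cells. Of 10, 4 were higher in Dox and 0 lower, led by Ccnb1 (1.01) and Aurka (0.97), and 6 were higher in D_I against B_I. The shares were 40% in Dox and 60% in D_I, against 10.3% and 9.41% of all genes. In H2O2, Aurka was higher (0.54). The part of this in the values of Ckap2 and Gtse1 was not tested.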

How the data were processed

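RNA was sequenced from 18 MOVAS libraries after capture with poly-T beads, per the labels' protocols. Per the submitters' processing notes, HTSeq 0.9.1, HISAT2 2.1.0 and fastp 0.22.0 were used, with no role stated. Genome build, annotation and strandedness of counting are not given in the sources used, and coordinates of genes are as deposited. The authors deposited raw counts, whole numbers for each gene in each library. The deposited FPKM values of the authors equalled the count times 1000000000 over gene length and column total in 100% of cases (relative tolerance 1e-06). Rows without a symbol (51, with 0.0187% of counts) were kept. Column names were matched to sample titles, with 0 columns left over.

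Counts were filtered (edgeR's expression filter on groups), scaled by TMM, and tested in R 4.3.3 with edgeR 4.0.16, by the quasi-likelihood test with robust dispersions over all 18 libraries with 1 mean per group. Adjustment was by Benjamini-Hochberg over 13375 genes, and genes were called at 0.05. SE is the absolute log2 change over the square root of the F statistic, and gave the 95% intervals. The common biological coefficient of variation was 0.219. Depth was 12859609 to 23284077 counts per library, and the median SE per gene in Dox against Blank was 0.229. The design text speaks of biological replicates. Replicates differed by a chi-square of at least 5.69 per degree of freedom within each group, and each was counted as a sample of its own. The largest value was 63.8, between Blank_2 and Blank_4. H2O2_3 differed from H2O2_1 by 29.9 and from H2O2_2 by 39.6, while H2O2_1 and H2O2_2 differed by 9.78. The script was tested on simulated data.

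The members and gene lists were chosen with earlier results of these data known. Every library is given for p53, Mdm2, Mdm4, Ppm1d, members called in Dox with an absolute log2 change of at least 1, and members called in H2O2 or for isoliensinine. Other members have changes or counts, and from other lists up to 2 called genes each way and Cdkn1a are named. Values given beyond this rule (Steap3, Gdf15, Rps27l, Bax, Bbc3, low counts) were chosen after they were seen. Alternatives were DESeq2 1.42.0, other scalings (DESeq2 size factors, upper quartile), other filters (none, 5 CPM in 3 libraries), only the groups compared, a replicate block, a threshold of 0.01, and leaving out libraries singly or Blank_4 with B_I_3. Leaving out H2O2_3 with H_I_1 was added after seeing the data.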

Additional observations from a re-analysis of the deposited data

How the results depend on the processing

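Members called kept within 1.5 times of the count given in the report for Dox against Blank, Dox against H2O2 and D_I against B_I under each alternative tried, and no called change reversed. Leaving out each library in turn gave 15 to 20 calls in Dox against Blank, 12 to 14 in Dox against H2O2 and 16 to 18 in D_I against B_I. Counts under an alternative mostly have no share of all genes beside them, and that share moved too. In Dox against Blank it was 14.7% with no filter and 30.7% with the filter of 5 CPM, with 18 and 20 members called. The calls in H2O2 against Blank and H_I against B_I were few and moved. H2O2 against Blank had 2 calls, 1 with DESeq2 size factors, 4 with upper-quartile scaling, 0 with only the groups compared, 6 with DESeq2, 6 without Blank_4 and B_I_3, 0 at an adjusted p under 0.01, and 0 to 4 when each library was left out. H_I against B_I had 2 calls, 1 with DESeq2 size factors, 0 with only the groups compared, 1 without Blank_4 and B_I_3, 1 without H2O2_3 and H_I_1, 0 at an adjusted p under 0.01, and 0 to 4 when each library was left out. D_I against Dox had 2 calls with only the groups compared, Plk2 and Rps27l. The cause of these shifts was not tested.

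Pairing was examined only between libraries with the same replicate number. Pairs with different numbers, such as Blank_4 with B_I_3, were not examined, so the values below do not decide whether libraries were paired. Correlations of the deviations of same-numbered libraries ran from -0.19 to 0.28 over the comparisons of a pair of groups. A replicate block gave 21 calls for Dox against Blank, 3 for H2O2 against Blank, 17 in Dox against H2O2, 22 in D_I against B_I and 4 in H_I against B_I, and 0 in the comparisons of isoliensinine with its reference. The number of Blank_4 is shared with no other library, so that library informs no other value of the block fit. Rrm2b, Polk, Mdm4 and Eda2r had few reads in some libraries, and their intervals reached beyond a 2-fold change in all 3 comparisons of isoliensinine with its reference. Whether depth or spread between libraries set those intervals was not tested.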
